A study of Mus musculus with 6 samples.

Results

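The AP-1 and immediate early genes described here are 10 genes chosen by name, *Fos*, *Fosb*, *Fosl2*, *Jun*, *Junb*, *Jund*, *Atf3*, *Egr1*, *Ier2* and *Zfp36*, of 18049 genes in the table, and all 10 passed the filter on low values. Their RNA was measured in colonic crypts of 6 mice of the same engineered genotype, with 1 total RNA library per mouse. The 3 control mice received 20% captisol in PBS, and the 3 GSK503-treated mice received GSK503, a small-molecule inhibitor of the histone methyltransferase EZH2, at 200 μg/kg into the tail vein for 9 weeks. Both groups were on a C57BL/6J background and carried *Villin-Cre*, which acts in the intestinal epithelium, and a humanized *TgfβRII* knock-in with a poly(A) repeat. Treated and control animals shared these alleles. According to the paper, mice of this model were kept on a Western-style diet. The ages of the 6 mice are not given in the sources used here.

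Immediate early genes are transcribed within minutes of a growth factor, cytokine or stress signal, without a need for new protein. AP-1 is a dimer of basic leucine zipper proteins. FOS family proteins pair with JUN family proteins, whereas JUN family proteins can also pair with each other, and ATF3 joins the same network. In the intestine, signals from EGF receptors, the microbiota, injury and the dissociation of tissue are known to raise these genes, and many of their mRNAs are short-lived because the 3′ UTR holds AU-rich elements bound by ZFP36 and related proteins.

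The promoter stretches below hold elements through which this class of gene is known to be driven. The matches found differed between members and also with the start site used. Positions count from the start site, with the base before it as -1, and capitals mark the motif. The *Fos* and *Fosb* stretches hold a CArG box (CC, then 6 bases that are each A or T, then GG), the element bound by serum response factor. The *Jun* stretch holds the TRE-like TGACATCA, a site of AP-1 and ATF dimers, and a CCAAT box, whereas the *Jund* stretch holds the cAMP response element TGACGTCA. The first 4 were read from the GRCm39 genome at the GENCODE start sites. The *Zfp36* stretch came from the RefSeq promoter table, whose build is GRCm38.p6, and holds a CArG box and GCGGGGGCG, the element bound by EGR proteins. Neither was found in the window at the GENCODE start site of *Zfp36*.
Fos (GRCm39 chr12:85520298-85520417, plus strand, bases -360 to -241): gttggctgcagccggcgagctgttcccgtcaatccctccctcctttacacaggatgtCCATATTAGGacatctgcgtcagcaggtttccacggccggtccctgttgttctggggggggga
Fosb (GRCm39 chr7:19044177-19044296, minus strand, bases -320 to -201): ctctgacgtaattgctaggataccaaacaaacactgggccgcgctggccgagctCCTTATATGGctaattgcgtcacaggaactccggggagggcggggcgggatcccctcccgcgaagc
Jun (GRCm39 chr4:94940460-94940579, minus strand, bases -120 to -1): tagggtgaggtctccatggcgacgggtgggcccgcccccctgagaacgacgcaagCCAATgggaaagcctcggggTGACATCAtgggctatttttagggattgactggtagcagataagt
Jund (GRCm39 chr8:71151349-71151468, plus strand, bases -250 to -131): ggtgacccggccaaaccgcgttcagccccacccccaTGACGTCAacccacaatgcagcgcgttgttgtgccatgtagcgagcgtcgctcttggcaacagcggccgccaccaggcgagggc
Zfp36 (GRCm38.p6 chr7:28379229-28379348, minus strand, bases -120 to -1): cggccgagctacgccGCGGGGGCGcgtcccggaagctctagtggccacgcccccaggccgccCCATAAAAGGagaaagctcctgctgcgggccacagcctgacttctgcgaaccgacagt

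Sites in the 3′ UTR were taken from the GENCODE transcripts of GRCm39. Capitals mark the AU-rich nonamer TTATTTATT, the core site of ZFP36, in *Fos*, *Fosl2* and *Zfp36* itself. In *Atf3* and *Jund*, which lack the nonamer, capitals mark the pentamer ATTTA. These sites are shown because the mRNA of *Zfp36* is among the transcripts that carry the site its own protein binds.
Fos 3′ UTR: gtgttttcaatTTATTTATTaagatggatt
Fosl2 3′ UTR: catttattttaTTATTTATTttaaatgttt
Zfp36 3′ UTR: ttatgacgactTTATTTATTgtattaagat
Atf3 3′ UTR: caccaattccaggATTTAggccttatcatc
Jund 3′ UTR: ccgattccgccctATTTAtgtttctactcg

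Values are TMM-scaled CPM, that is, RSEM-estimated CPM of a library size that the authors adjusted with edgeR's TMM method. The difference between groups was fitted with limma on log2(value + 0.1) over 16670 genes, those that reached 0.1 in 3 or more mice, and each log2FC is GSK503 minus control on that scale. Unless an alternative or a left-out library is named beside it, an adjusted p is from this limma fit with Benjamini-Hochberg adjustment over all genes tested, and a gene was called when it lay below 0.05. An exact two-sided permutation test of 3 mice against 3 cannot give a p below 0.1. The 6 estimated library totals lay between 108162848 and 135085027 counts, and each of the 10 genes had at least 3447 estimated counts in every library. Counting error was thus at most 1.7% of a value, below the spread between mice in both groups. The nearest was *Ier2* in control crypts, with a spread of 1.3% and a counting error of at most 1.23%.

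The 6 libraries differed in 3 ways that the treatment labels do not name. *Xist*, the X-inactivation RNA, lay between 0.419 and 0.936 in control crypts and between 825 and 1240 in treated crypts, and the Y-linked *Uty* lay between 42.5 and 53.7 and between 0.67 and 1.08, so that treatment and sex cannot be told apart. Epithelial markers (*Epcam*, *Krt8* and 5 others) summed to between 9350 and 10400 in control crypts and between 10000 and 11500 in treated crypts. Goblet cell markers (*Clca1*, *Fcgbp*, *Tff3*, *Zg16*, *Agr2* and *Spdef*) summed to between 10100 and 18300 and between 31300 and 49900, with 3 of 6 genes called higher. Enteroendocrine markers summed to between 188 and 236 and between 118 and 153, with 3 of 6 called lower. In whole crypts, fewer cells of a type and less RNA per cell cannot be told apart. *Ezh2*, whose protein the drug inhibits, had a mean of 43.6 ± 5.29 in control and 36.0 ± 0.769 in treated crypts (SD, n = 3 each, log2FC -0.27, adjusted p = 0.291).

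Of the 10 genes, *Atf3*, *Egr1* and *Zfp36* fell after GSK503 at an adjusted p below 0.05, and none rose. Over all genes tested, 0.144% were called lower and 0.498% were called higher. At an adjusted p below 0.1, *Fos* and *Ier2* joined the lower group and *Jund* was the only one on the higher side, where 0.558% of all genes were lower and 1.41% were higher. The log2FC was below 0 for 9 of the 10 genes, against 51.1% of all genes, and the median log2FC of the 10 was -0.37 against -0.01 over all genes. The groups did not overlap for 9 genes, of which 8 were lower and 1 was higher, where 9.22% of all genes were lower without overlap and 9.84% were higher without overlap. *Fosl2* was the single gene whose groups overlapped. The 10 genes were chosen with earlier results of these data known, so the shares beside all genes are a description and not a test.

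**Figure D1:**
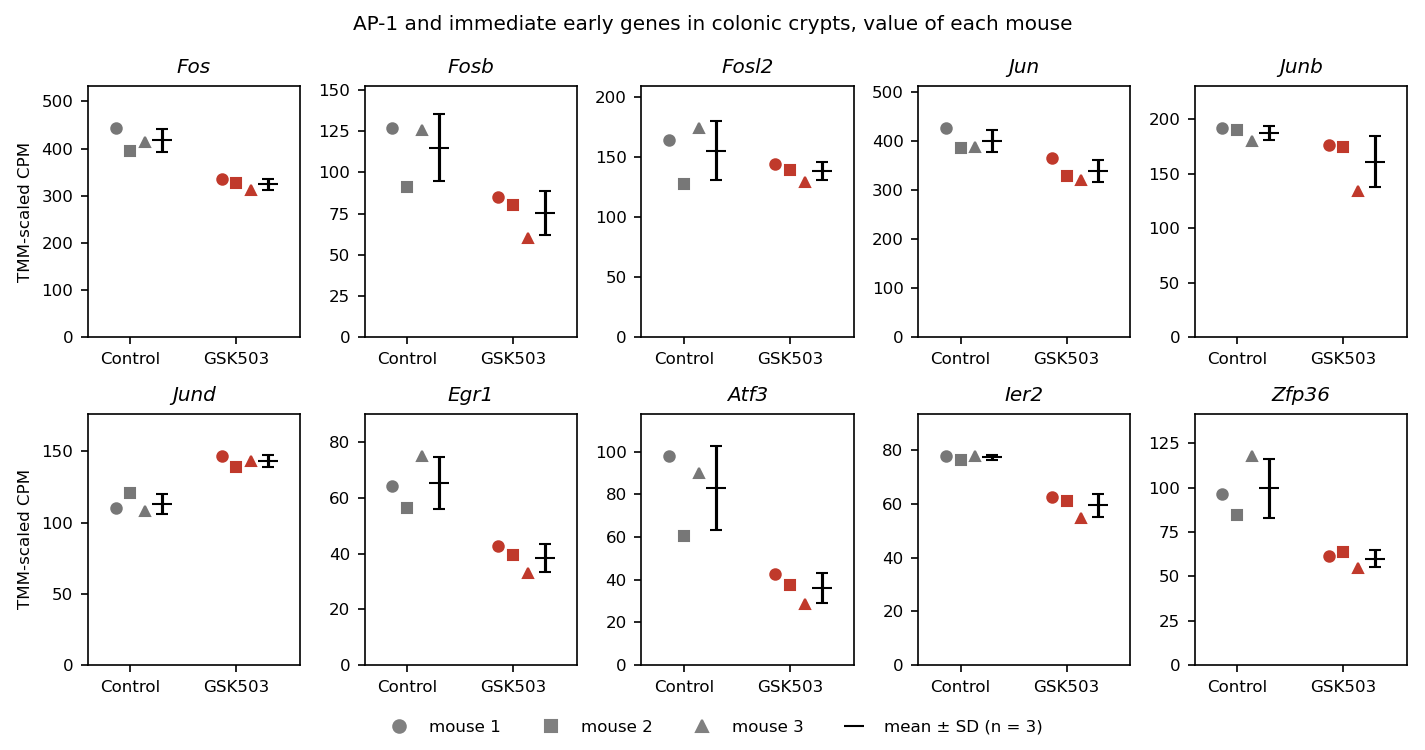
Value of each mouse for the 10 genes, in TMM-scaled CPM on linear axes that start at 0, with control mice in grey, GSK503-treated mice in red, a marker shape for each mouse number and the mean ± SD (n = 3) beside them. All 3 treated mice lie below all 3 control mice in 8 panels, above them for *Jund*, and among them for *Fosl2*.

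*Fos* encodes the founding FOS protein, which binds DNA only as a partner of a JUN protein. It lies on the plus strand at chr12:85520658-85524047 of GRCm39 (ENSMUSG00000021250). Its values were 444, 395 and 415 in Controls 1, 2 and 3, against 335, 326 and 312 in GSK503 mice 1, 2 and 3. The highest treated mouse lay below the lowest control mouse, and the means were 418 ± 24.6 and 324 ± 11.7 (SD, n = 3 each). The log2FC was -0.37 (standard error 0.08, 95% confidence interval -0.54 to -0.19, adjusted p = 0.0741), so the difference did not pass the threshold.

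*Fosb*, whose long-lived splice product is known from chronically stimulated neurons, lies on the minus strand at chr7:19036621-19043976 (ENSMUSG00000003545). Its values were 127, 91.1 and 126 in control crypts and 85.2, 80.3 and 60.2 in treated crypts. Control 2 lay nearest to the treated mice, and the groups did not overlap. The log2FC of -0.61 was larger than that of *Fos*, yet its standard error was 0.16 and its adjusted p was 0.13. Splice forms were not separated in the table.

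*Fosl2* encodes FRA2, a FOS protein that lacks the strong activation domain of FOS and is made later after a stimulus. It lies on the plus strand at chr5:32292707-32315186 (ENSMUSG00000029135). Its values were 164, 127 and 174 in control crypts and 144, 139 and 129 in treated crypts, so that Control 2 lay below all 3 treated mice. The log2FC was -0.16 with a 95% confidence interval from -0.41 to 0.10 (adjusted p = 0.6). The value depended on single libraries and on the scaling, at -0.29 without Control 2 (adjusted p = 0.219), -0.07 without Control 3 and -0.27 when values were scaled by library size only (adjusted p = 0.213).

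*Jun*, the main partner of FOS and a target of JNK, lies on the minus strand at chr4:94937271-94940459 (ENSMUSG00000052684) and has a single exon. It measured 426, 385 and 387 in control crypts and 364, 329 and 320 in treated crypts. The groups did not overlap, although treated mouse 1 lay close to the 2 lower control mice. The log2FC was -0.24 (standard error 0.08, adjusted p = 0.244).

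*Junb*, often an antagonist of JUN in proliferation, lies on the minus strand at chr8:85701113-85705359 (ENSMUSG00000052837). It measured 192, 190 and 180 in control crypts and 176, 174 and 134 in treated crypts. GSK503 mouse 3 lay far below the other 5 mice, and without it the log2FC moved from -0.23 to -0.10. The adjusted p with all 6 mice was 0.407. The locus overlaps the opposite-strand gene *Prdx2*, which had a log2FC of 0.10 (adjusted p = 0.67). Whether the strand was used in counting is not given in the sources used here, so reads of the shared stretch may be assigned to either gene.

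*Jund*, which is expressed in most resting cells and responds little to serum, lies on the plus strand at chr8:71151599-71153265 (ENSMUSG00000071076) and has a single exon. It measured 110, 121 and 108 in control crypts and 147, 139 and 143 in treated crypts. It was the only member of the 10 with a higher mean after GSK503, at 113 ± 7.26 against 143 ± 4.16 (SD, n = 3 each). The log2FC was 0.34 (standard error 0.07, 95% confidence interval 0.17 to 0.50, adjusted p = 0.0806), which did not pass the threshold. With library size alone as the scaling, under which the median log2FC of all genes was -0.12, its log2FC was 0.22 (adjusted p = 0.137).

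*Atf3*, a stress-induced factor that represses or activates depending on its partner and that the integrated stress response raises, lies on the minus strand at chr1:190902493-190950241 (ENSMUSG00000026628). It measured 98.2, 60.5 and 90.1 in control crypts and 42.5, 37.3 and 28.7 in treated crypts. Its lowest control mouse was still above the highest treated mouse. The means were 82.9 ± 19.8 and 36.2 ± 6.98 (SD, n = 3 each), a fold of 0.44 on the log2 fit, and the log2FC of -1.18 (standard error 0.19, 95% confidence interval -1.61 to -0.76, adjusted p = 0.0286) was the largest of the 10 in size.

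*Egr1*, a zinc finger factor that serum response factor and ELK proteins induce downstream of ERK, lies on the plus strand (ENSMUSG00000038418) and has 2 exons. It measured 64.2, 56.4 and 75.2 in control crypts and 42.9, 39.6 and 33.0 in treated crypts. The 2 groups were clearly apart, with the highest treated value below the lowest control value. The means were 65.3 ± 9.45 and 38.5 ± 5.03 (SD, n = 3 each), with a log2FC of -0.76 (standard error 0.13, 95% confidence interval -1.04 to -0.47, adjusted p = 0.0335).

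*Ier2*, a short immediate early gene with a nuclear product, lies on the minus strand at chr8:85387960-85389483 (ENSMUSG00000053560). It measured 78.0, 76.2 and 77.9 in control crypts and 62.7, 61.0 and 54.7 in treated crypts. The coefficient of variation over the 3 control mice was 1.3%, the smallest of any of the 10 genes in either group. The log2FC was -0.38 (standard error 0.08, adjusted p = 0.0629).

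*Zfp36* encodes tristetraprolin, which binds AU-rich elements and recruits the deadenylation machinery, and lies on the minus strand at chr7:28076209-28079710 (ENSMUSG00000044786). It measured 96.5, 84.7 and 118 in control crypts and 61.6, 63.4 and 54.6 in treated crypts. The treated mice lay closer together than the control mice, with a coefficient of variation of 7.76% against 16.8%. The means were 99.6 ± 16.7 and 59.9 ± 4.65 (SD, n = 3 each), and the log2FC was -0.72 (standard error 0.12, 95% confidence interval -0.99 to -0.46, adjusted p = 0.0321).

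The 3 calls depended on the variance model and on which libraries were included. Without the intensity trend the adjusted p of each was 0.224 to 0.225, and robust empirical Bayes gave *Atf3* an adjusted p of 0.068. Without Control 1, the adjusted p was 0.0755 for *Atf3*, 0.0804 for *Egr1* and 0.0743 for *Zfp36*. Without Control 3 it was 0.102, 0.0885 and 0.0517, and without GSK503 mouse 2 it was 0.124, 0.144 and 0.121 for the same genes. *Zfp36* also lost its call without GSK503 mouse 1 (adjusted p = 0.0702) and without GSK503 mouse 3 (adjusted p = 0.0502), whereas *Atf3* and *Egr1* kept theirs there, at an adjusted p between 0.0324 and 0.0457. Without Control 2 all 3 stayed called, at an adjusted p between 0.0115 and 0.0451. The log2FC moved far less than the call, between -1.40 and -1.03 for *Atf3*, between -0.86 and -0.65 for *Egr1* and between -0.83 and -0.60 for *Zfp36*.

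**Figure D2:**
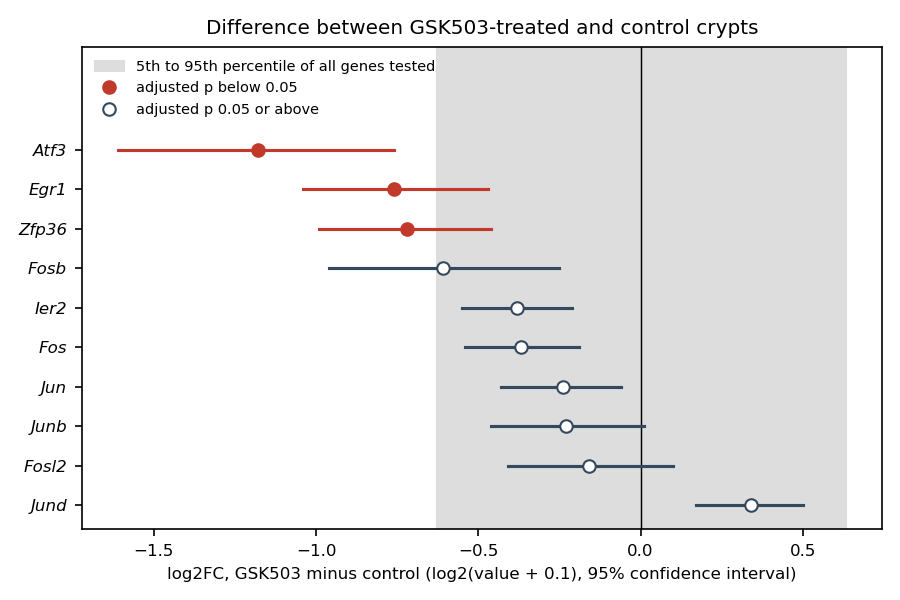
Fitted log2FC (GSK503 minus control, on log2(value + 0.1)) of each gene with its 95% confidence interval from limma, filled where the adjusted p was below 0.05, over a grey band from the 5th to the 95th percentile of all 16670 genes tested (-0.63 to 0.63). *Atf3*, *Egr1* and *Zfp36* lie outside the band, and the intervals of *Junb* and *Fosl2* include 0.

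Levels of different genes were compared per kilobase of the canonical transcript. In the control mice *Fos* was the highest, at a mean of 198 per kb, followed by *Jun* at 125, *Junb* at 103, *Jund* at 67.9 and *Ier2* at 50.8, and the mice of these 5 neighbouring genes did not overlap. *Atf3* at 41.8, *Zfp36* at 35.3 and *Fosb* at 30.3 each overlapped the next gene in that order, *Fosl2* at 22.2 did not, and *Egr1* was the lowest at 14.5. In the treated mice *Fos* was again the highest at 153 per kb and *Egr1* the lowest at 8.57. *Atf3* stood sixth in control crypts and ninth in treated crypts, at 18.2 per kb, where its range overlapped that of *Fosl2* (18.5 to 20.6 per kb). *Jund* and *Junb* overlapped in the treated mice, at 83.4 to 88.2 and 74.1 to 97.3 per kb, but not in the control mice. The order rests on transcript lengths from GENCODE.

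The balance among JUN family members was compared between the groups through ratios within a mouse, which are free of library scaling. Unlike the values per kb above, these ratios were not corrected for transcript length, so they do not give relative transcript numbers. The ratio of *Jund* to *Jun* (in TMM-scaled CPM) was 0.259, 0.315 and 0.279 in control crypts and 0.404, 0.422 and 0.445 in treated crypts (exact two-sided permutation test, p = 0.1). Its groups did not overlap. *Jund* made up 16.2% ± 1.16 of the summed *Jun*, *Junb* and *Jund* values in control crypts and 22.3% ± 1.38 in treated crypts (SD, n = 3 each, exact two-sided permutation test, p = 0.1). The ratio of *Jund* to *Junb* ran from 0.574 to 0.64 and from 0.799 to 1.06. Within the FOS family the ratio of *Fosb* to *Fos* overlapped between the groups, at 0.273 ± 0.0375 and 0.231 ± 0.0333 (SD, n = 3 each, exact two-sided permutation test, p = 0.3). The ratio of *Fos* to *Jun*, the classical AP-1 pair, was 1.05 ± 0.0241 and 0.961 ± 0.0375 (SD, n = 3 each, exact two-sided permutation test, p = 0.1).

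Mice of a group differed from each other in the same direction across most of the 9 genes with a lower mean. Control 2 was the lowest control mouse for 8 of the 9, with a mean deviation of -0.17 on the log2 scale from its group. GSK503 mouse 3 was the lowest treated mouse for 9 of the 9, also with a mean deviation of -0.17, and GSK503 mouse 1 was the highest for 8 of 9. Averaged over the 10 genes after centring each one, the log2 level was 0.28, 0.07 and 0.29 in control crypts and -0.10, -0.17 and -0.37 in treated crypts.

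The same 2 libraries had the highest sums of their groups for smooth muscle, fibroblast, macrophage, and B and plasma cell markers. Smooth muscle markers (*Acta2*, *Actg2*, *Myh11*, *Tagln*, *Cnn1* and *Des*) summed to 20.9, 90.1 and 46.2 in control crypts and 4.52, 4.26 and 122 in treated crypts. Fibroblast markers summed to 60.2, 77.1 and 61.7 and to 25.1, 33.8 and 113, with *Lum* at 0 in GSK503 mouse 1. Macrophage markers summed to 27.1, 47.0 and 27.5 and to 10.1, 6.19 and 65.0, and B and plasma cell markers to 28.7, 65.1 and 20.7 and to 2.04, 1.27 and 60.3, with *Mzb1* at 0 in GSK503 mice 1 and 2 and *Cd79a* at 0 in GSK503 mouse 2. GSK503 mouse 3 therefore had the most of these markers of all 6 mice except B and plasma cells, and at the same time the lowest *Fos*, *Fosb*, *Jun*, *Junb*, *Egr1*, *Atf3*, *Ier2* and *Zfp36*. None of the 6 smooth muscle, 6 fibroblast, 7 macrophage or 6 B and plasma cell genes was called. Control 2 was not the highest control mouse for endothelial or T cell markers, but was for enteric glia markers. Endothelial markers summed to 12.4, 10.5 and 9.84 in control crypts and 14.0, 12.1 and 18.6 in treated crypts. *Vwf* alone gave 12.1, 9.74 and 10.6 of the treated sums, and the other 5 endothelial markers had a log2FC below 0. T cell markers summed to 14.3, 8.39 and 9.66 and to 8.2, 9.48 and 10.6. Enteric glia markers summed to 1.13, 1.45 and 0.748 and to 1.39, 1.15 and 2.45, so GSK503 mouse 3 had the highest treated sum in all 3 lists. Without GSK503 mouse 3, the adjusted p was 0.0393 for *Atf3*, 0.0457 for *Egr1* and 0.0502 for *Zfp36*, whose call was lost, and the part of other cell types in the results was not tested.

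**Figure D3:**
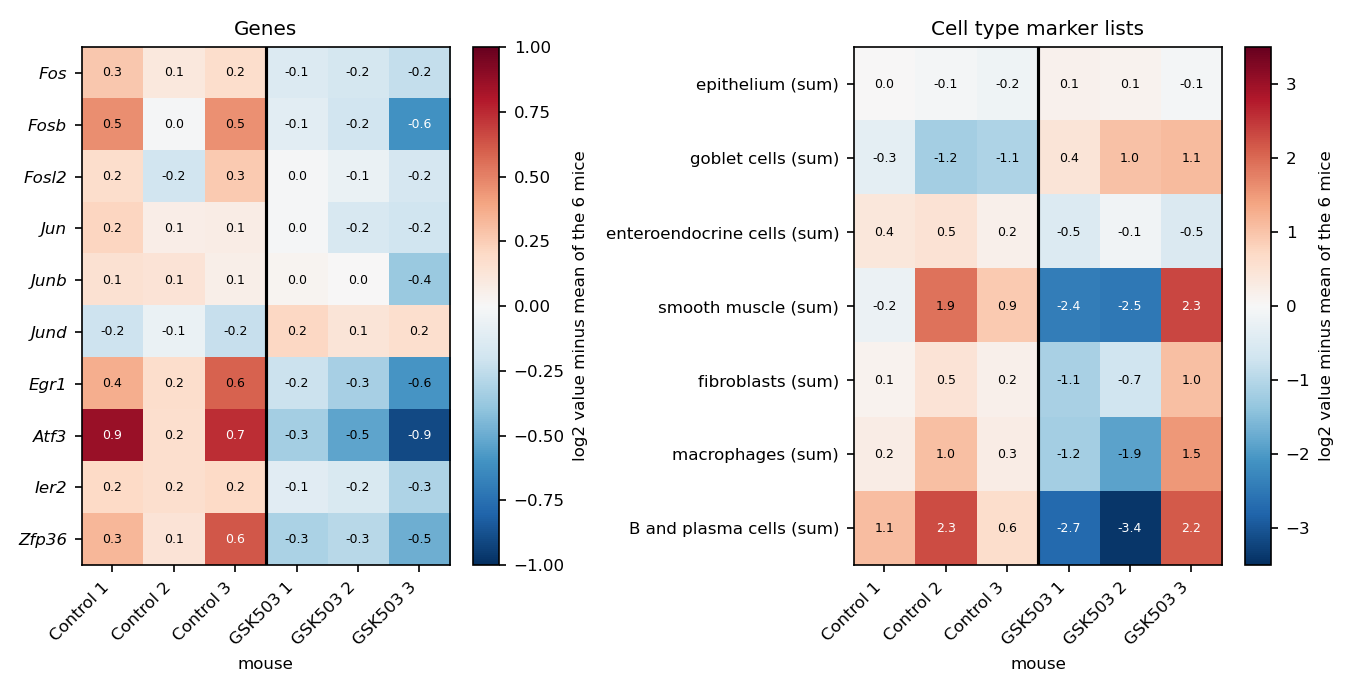
Log2 value of each mouse minus the mean of the 6 mice, for the 10 genes (left, on log2(value + 0.1)) and for the summed values of 7 cell type marker lists (right, on a wider colour scale), with control mice left of the black line. Control 2 and GSK503 3 have the highest smooth muscle, fibroblast and macrophage sums of their groups, and GSK503 3 has the lowest *Atf3*, at -0.9.

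Other genes of the same network were read from the same fit. Of 14 further AP-1 type leucine zipper genes, 13 were tested and 0 were called by limma in either direction, with a log2FC below 0 for 9 and above 0 for 4, and a median log2FC of -0.04. *Nfe2l2*, which encodes the antioxidant regulator NRF2, had means of 176 ± 6.64 and 159 ± 2.70 (SD, n = 3 each), and *Fosl1*, which encodes FRA1, was near the bottom of the range, at 1.21 ± 0.111 and 1.26 ± 1.04, with overlapping groups. *Batf3* was too low to be tested.

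Among 44 further immediate early genes, 42 were tested, 1 was called lower and 0 were called higher, with a log2FC below 0 for 30 and above 0 for 12 and a median log2FC of -0.16. The call was *Dusp1*, a phosphatase that switches off MAP kinases. It measured 49.3, 41.9 and 54.6 in control crypts and 29.2, 30.3 and 34.3 in treated crypts, with a log2FC of -0.63 (standard error 0.11, adjusted p = 0.045). The call was lost without Control 1 (adjusted p = 0.106), Control 3 (0.107), GSK503 mouse 1 (0.112) or GSK503 mouse 2 (0.213), at a pseudocount of 1 (0.0508) or 0.01 (0.0514), and without the intensity trend (0.226). *Ccn1* is a matricellular protein gene induced by serum response factor and YAP. It measured 14.1, 9.83 and 13.1 in control crypts and 6.70, 7.92 and 6.49 in treated crypts (log2FC -0.79, adjusted p = 0.0741).

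Not all immediate early genes had lower values after treatment. *Nr4a2*, an orphan nuclear receptor gene, measured 4.10, 3.10 and 3.98 in control crypts and 6.15, 6.53 and 6.69 in treated crypts (log2FC 0.79, adjusted p = 0.0876), and *Ier5l* measured between 0.609 and 1.01 and between 1.5 and 1.56 (log2FC 0.82, adjusted p = 0.269). *Arc*, a plasticity gene best known in neurons, had a log2FC of -0.65 (adjusted p = 0.335). *Egr4* and *Npas4* were not analysed here.

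The kinases and promoter factors upstream of these genes gave no calls in limma. Of 29 genes from the EGF receptors through RAS, RAF, MEK, ERK, JNK and p38 to ELK, SRF and CREB, 17 had a log2FC below 0 and 12 one above 0, and the median log2FC was -0.06. *Mrtfb*, a cofactor of serum response factor, had the largest difference, with means of 67.7 ± 12.5 and 49.3 ± 4.79 (SD, n = 3 each, log2FC -0.45). *Rps6ka3*, which encodes a kinase activated by ERK, had a log2FC of -0.34. *Mapk3*, which encodes ERK1, and *Erbb2*, a receptor of the EGF receptor family, had a log2FC of -0.31 and -0.29.

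Heat shock genes, a second class that stress and tissue handling are known to raise, were read beside them. Of 14 genes, 0 were called by limma, 10 had a log2FC above 0 and 4 one below 0, and the median log2FC was 0.10. *Hspa1b* measured 152, 280 and 59.0 in control crypts and 519, 438 and 336 in treated crypts (log2FC 1.64, adjusted p = 0.143), and the nearly identical *Hspa1a*, with which it can share reads, overlapped between the groups (log2FC 1.72, adjusted p = 0.305). *Dnajb1*, the HSP40 cochaperone, had a log2FC of 0.54 (adjusted p = 0.105) without overlap, and *Bag3* had a log2FC of 0.31.

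Other AU-rich element binding proteins and mRNA decay factors were called in neither direction by limma. Of 12 tested genes, 11 had a log2FC below 0 and 1 one above 0, with a median log2FC of -0.20. Over all genes, 51.1% had a log2FC below 0. Of the 12, 4 were lower without overlap, where 9.22% of all genes were. The largest differences were those of *Tia1* (log2FC -0.32), *Hnrnpd* (-0.29), *Tial1* (-0.28) and *Dcp2* (-0.26). At an unadjusted p below 0.05, 2223 of all genes tested passed.

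**Figure D4:**
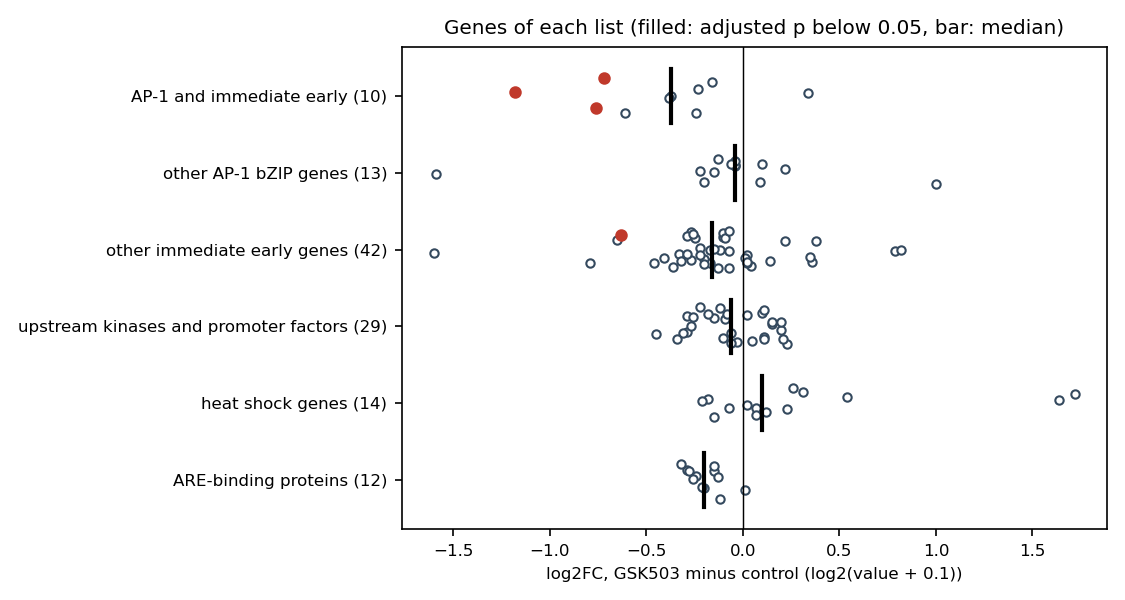
Fitted log2FC (GSK503 minus control, on log2(value + 0.1)) of every tested gene of 6 lists, with points spread vertically at random for legibility, filled points at an adjusted p below 0.05 and a bar at the median. The bar stands at -0.37 for the 10 AP-1 and immediate early genes, and the other 5 bars lie between -0.20 and 0.10. All 6 lists were chosen with earlier results of these data known.

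Most of the 10 genes had a compact structure, a trait that the choice by name did not use. The median genomic span of the 10 was 3.87 kb against 25.7 kb over 14659 tested coding genes. *Fosl2* (22.48 kb) and *Atf3* (47.75 kb) were the 2 that exceeded 10 kb. *Jun*, *Junb*, *Jund* and *Ier2* have a single exon, 40% of the 10 against 2.56%. All tested coding genes with a span under 10 kb had a median log2FC of 0.06, and those with a single exon one of 0.10. The median of the 10 was -0.37, and the part of gene structure in the differences was not tested. Transcripts of other annotated genes overlap *Fosl2*, *Jun*, *Junb*, *Jund*, *Atf3* and *Zfp36*, and none overlap *Fos*, *Fosb*, *Egr1* or *Ier2*.

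The pentamer ATTTA occurred in the 3′ UTR of 9 of the 10 genes, with *Ier2* as the exception, and in 70.9% of all tested coding genes. The nonamer TTATTTATT occurred in *Fos*, *Fosl2* and *Zfp36*, 30% of the 10 against 8.69%. Genes of the table that hold the nonamer had a median log2FC of -0.03. The 3 members with it had a log2FC of -0.37, -0.16 and -0.72, and the 7 without it ranged from -1.18 (*Atf3*) to 0.34 (*Jund*). The part of these sites in the differences was not tested.

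Promoter motifs were searched on both strands in windows of 450 bases before to 50 bases after each GENCODE start site. A CArG box was found in *Fos* (first base at -303) and *Fosb* (-266), 2 of 10 against 2.6% of 21729 promoters. TGACGTCA was found in *Jund* (-214) and *Ier2* (-43) against 2.7%, and TGACNTCA, which includes those 2 matches, also in *Jun* (-45) against 11.5%. The canonical AP-1 site TGACTCA was in none of the 10 windows against 7.5%. TATAAA was found in *Fos* (-27) and *Junb* (-30) against 22.9%, CCAAT in *Jun*, *Junb*, *Jund* and *Atf3* against 53.9%, and GCGGGGGCG in *Fosb* (-44) and *Jund* (-75) against 3.7%. The shorter RefSeq windows held 8 of the 10 genes, all but *Egr1* and *Ier2*. For RefSeq, members were counted by gene, whereas the share beside them is over all promoter records, so the units differ. There a CArG box was found in *Zfp36* alone (-58) against 1.6% of 32851 promoters. These windows did not reach far enough upstream to hold the CArG boxes of *Fos* and *Fosb*. GCGGGGGCG was found in *Fosl2*, *Fosb* and *Zfp36* against 2.9%. TGACGTCA was found in 0 of the 8 against 1.8%, and the RefSeq window of *Jund* held none of the motifs searched. *Fosl2*, *Egr1* and *Zfp36* had no match in their GENCODE windows, and *Egr1* had no RefSeq window. A window without a match therefore does not show that the gene lacks the element. A match is a description of letters and not of binding.

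The genes whose 6 values most resembled the mean profile of the 10 were *Zfp362* (Pearson's r = 0.999), *Golim4* (0.996), *Alg6* (0.993), *Ddx11* (0.992) and *Cul4b* (0.988), of 12787 candidates over the 6 mice. The points share the difference between the groups, so a high r over 6 mice is a description. None of the 5 was called, and their adjusted p lay between 0.14 and 0.448. *Zfp362* measured 6.14, 4.72 and 6.41 in control crypts and 3.77, 3.49 and 2.79 in treated crypts, with the low Control 2 and GSK503 mouse 3 of the profile itself.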

How the data were processed

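The samples were 6 crypt libraries, 3 Control and 3 GSK503, with groups and replicate numbers from the sample titles. The authors used STAR (build GRCm39) and RSEM for alignment and count estimation, and deposited a signal per gene scaled by edgeR's TMM method, in units of estimated CPM. Between 75.2% and 78% of a library's values were whole multiples of its step (tolerance 0.01), which gave the estimated totals. Because the deposited values are not counts, limma 3.58.1 (R 4.3.3) was used with lmFit and eBayes, an intensity trend, a pseudocount of 0.1 and Benjamini-Hochberg adjustment. The filter left out 1379 genes. The fit was tested on simulated data. Each limma p-value sets the difference between the groups against the spread between these 6 mice, which eBayes moderates over all genes tested. The counting error given above does not include the spread between mice.

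Named genes were the 10 genes, those of each pathway list that were called or were among the 4 largest absolute log2FC at a mean of at least 1, the 5 most alike, marker lists, and *Xist*, *Uty* and *Ezh2*. *Prdx2*, *Nfe2l2*, *Fosl1*, *Batf3*, *Lum*, *Mzb1* and *Cd79a* were also named. The 10 genes and the lists were chosen with earlier results of these data known. Symbols were matched to GENCODE vM39 for 95.4% of 18049 genes, and 8 of the 10 genes matched the RefSeq promoter table. Figures were made with Python 3.11.15 and matplotlib 3.10.9. A further allele that both groups shared is not reported here.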

Additional observations from a re-analysis of the deposited data

How the results depend on the processing

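Of 17 alternatives, all 17 kept the direction of each of the 10 genes and left 9 of them with a lower mean. Against 107 called genes (83 higher, 24 lower, 77.6% higher) and 3 of the 10 called lower, library size alone as the scaling gave 260 (82 higher, 178 lower, 31.5% higher) and 5, since *Fos* (adjusted p = 0.0233, limma) and *Ier2* (0.0178) passed, and it moved the median log2FC of all genes from -0.01 to -0.12. Leaving out the intensity trend gave 16 called genes and 0 of the 10, with an adjusted p between 0.224 and 0.225 for *Atf3*, *Egr1* and *Zfp36*. Robust empirical Bayes gave an adjusted p of 0.068 for *Atf3*. The samples share only a number between the groups: their deviations correlated at 0.03, -0.13 and -0.12 for equal numbers, and no mouse correlated best with its own number. With the replicate block, 33 genes and 0 of the 10 were called, with an adjusted p of 0.0709, 0.123 and 0.122 for *Atf3*, *Egr1* and *Zfp36* and 0.076 for *Dusp1*. Leaving out each mouse in turn gave between 30 and 229 called genes and between 0 and 3 of the 10 called lower, where a fit has 2 mice in one group. The other alternatives (pseudocounts, filters, median-of-ratios scaling, limma-voom on estimated counts and leaving out X and Y genes) kept the calls of *Atf3*, *Egr1* and *Zfp36*. The cause of these changes was not tested. Sex and treatment cannot be told apart, and 3 mice a group limit every test.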
